A study of Homo sapiens with 4 samples.

Results

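A set of 9 genes that bring amino acids into the cell, make them or switch on their supply was followed in maps of c-MYC binding in MIA PaCa-2, a long-established line of human pancreatic ductal adenocarcinoma cells. They were taken by name: the transporter genes SLC7A5, SLC3A2, SLC1A5 and SLC38A2, the enzyme genes GOT1, ASNS, PHGDH and PSAT1, and ATF4, which encodes a transcription factor. These are 9 of the 19663 protein-coding genes counted below. The maps came from ChIP–seq (chromatin immunoprecipitation and sequencing): an antibody recovers DNA held by a protein, the fragments are sequenced, and regions where they pile up are listed as peaks. The cells received DMSO (the solvent), 100 nM AMG510 (an inhibitor) or 10 nM trametinib (a MEK inhibitor) for 8 h. Each treatment had 1 library made with an antibody to c-MYC, and the DMSO-treated cells had 1 further library made with non-specific immunoglobulin (IgG), so that there were 4 libraries and no replicates. Differences between libraries therefore have no replicate check and no p-values, and every interval given below is a 95% interval that covers counting error only. Because all cells were of a single line, the values describe that line alone.

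c-MYC, with its partner MAX, binds DNA at a short palindrome called the E-box and at close variants of it, mostly near the start sites of active genes. Tumour cells that depend on c-MYC are known for their large use of glutamine, which supplies nitrogen and carbon for the synthesis of other amino acids and nucleotides. ATF4 is made when amino acids run short, and it is known to switch on transporters and enzymes of amino acid supply, several of the genes described here among them, through a composite site that it binds together with C/EBP proteins.

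c-MYC peaks lay at the starts of most of these genes in DMSO-treated cells and at fewer of them in either drug library. In DMSO, 7 of the 9 genes (77.8%) had a promoter peak, defined as a peak with its summit within 1 kb of the start of a protein-coding transcript, against 24.2% of all protein-coding genes. In AMG510, 4 of the 9 (44.4%) had a promoter peak, against 15.3% of all genes. In trametinib, 3 of the 9 (33.3%) had a promoter peak, against 11.8% of all genes. No member had a promoter peak in IgG, where 0.559% of all genes did. Thus the share among the 9 genes was above that among all genes in each c-MYC library, and it was lower in both drug libraries than in DMSO, as it was for all genes. The comparison was not matched for expression or for the number of coding starts, of which SLC3A2 and ASNS have 12 each. More starts give a gene a wider stretch in which a summit counts.

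**Figure D1:**
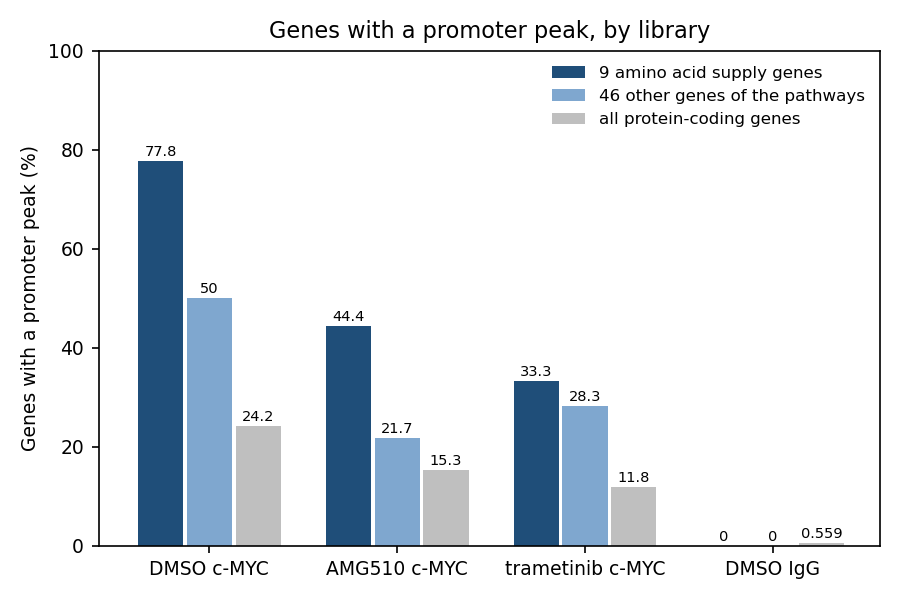
Percentage of genes with a promoter peak (y axis) in each of the 4 libraries (x axis), with bars for the 9 amino acid supply genes, for 46 other genes of the same pathways and for all 19663 protein-coding genes. The 9 genes stand highest in the 3 c-MYC libraries, at 77.8%, 44.4% and 33.3%, and at 0 in IgG.

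The libraries were of similar depth. The peak lists gave back 22700000 to 24800000 tags per library. A tag is an aligned read that entered peak calling, and since reads came in pairs, both ends of 1 fragment could count as 2 tags. The intervals below treat tags as independent and are too narrow where they are not, so the ratios between libraries were also given intervals from fragments, with 2 tags counted as 1. Each tag was extended before the pile-up, by a length recovered as 177 bp in DMSO, 157 bp in AMG510, 163 bp in trametinib and 143 bp in IgG. A longer extension puts more tags at a summit. The ratios were scaled for tags and not for this length, so ratios of a drug library to DMSO run somewhat low. The DMSO, AMG510, trametinib and IgG lists held 9552, 10378, 5431 and 2966 peaks, and 4617, 2806, 2124 and 109 of these lay at promoters of protein-coding genes. AMG510 thus had the longest list but fewer promoter peaks than DMSO. A peak at the genome-wide background needed 7 or 8 tags to be listed, so a gene without a peak may still hold tags below that number. Where a summit height is carried over to another library below, it comes from a peak that passed the call in its own library, so it tends to run high. Heights carried over from DMSO also keep the effect of its longer extension. Their margins over the tags needed are therefore likely too wide, and the absence of a peak was not tested.

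Sequences under the summits are shown for the genes whose peaks carried a motif close to the summit, because they show what stood in the DNA at the place of the highest signal. Each is 151 bp centred on a summit, read 5′ to 3′ on the strand of the gene from GRCh38. Capitals mark an E-box (CACGTG), a noncanonical E-box (CACGCG, or CGCGTG on the other strand) or an ATF4 element (TGATGNAA, or its reverse complement).
SLC7A5, upstream, DMSO summit, chr16:87869631-87869781, minus strand: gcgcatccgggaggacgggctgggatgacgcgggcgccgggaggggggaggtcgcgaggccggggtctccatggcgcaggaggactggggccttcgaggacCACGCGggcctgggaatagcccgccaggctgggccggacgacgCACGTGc
SLC7A5, intron 1, DMSO summit, chr16:87868762-87868912, minus strand: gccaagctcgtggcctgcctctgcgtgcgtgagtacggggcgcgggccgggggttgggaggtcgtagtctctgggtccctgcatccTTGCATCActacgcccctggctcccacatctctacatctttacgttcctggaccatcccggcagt
SLC1A5, intron 1, DMSO summit, chr19:46786847-46786997, minus strand: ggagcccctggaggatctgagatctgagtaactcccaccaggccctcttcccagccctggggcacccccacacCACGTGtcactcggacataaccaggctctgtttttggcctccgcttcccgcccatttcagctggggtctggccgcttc
PSAT1, exon 1 and intron 1, DMSO summit, chr9:78297204-78297354, plus strand: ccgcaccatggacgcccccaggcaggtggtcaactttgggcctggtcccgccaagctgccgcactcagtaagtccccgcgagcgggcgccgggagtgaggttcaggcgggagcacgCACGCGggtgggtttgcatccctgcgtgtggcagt

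Shorter stretches show single matches with 12 bases on either side, again on the gene's strand.
ATF4, noncanonical E-box nearest the AMG510 and trametinib summits, chr22:39520601-39520606, plus strand: tagttttctctgCGCGTGtgcgttttccct
ATF4, E-box inside the trametinib peak, chr22:39520477-39520482, plus strand: ggaggagacggtCACGTGgtcgcggcggaa
SLC38A2, noncanonical E-box inside the DMSO and AMG510 peaks, chr12:46372288-46372293, minus strand: ctgggcgggggcCGCGTGcctgcacggtgc
GOT1, ATF4 element upstream of a start without a peak, chr10:99430815-99430822, minus strand: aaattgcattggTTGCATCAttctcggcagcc

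SLC7A5 (ENSG00000103257) and SLC3A2 (ENSG00000168003) encode the light and heavy chains of the LAT1 exchanger, which carries leucine and other large neutral amino acids into the cell, and their peaks fell in different libraries. SLC7A5, on the minus strand of chr16:87830023-87869507, had 2 promoter peaks in DMSO. The stronger, at chr16:87869114-87869817, had 32 tags at its summit (21.9–45.2), which lay 199 bp upstream of the start. Its deposited fold enrichment, the ratio of signal to local background, was 6.84, above 92.1% of the DMSO list. The weaker, at chr16:87868670-87868913, had its summit in intron 1, 670 bp downstream of the start, with 20 tags (12.2–30.9) and a fold enrichment of 4.37. SLC7A5 thus carried both the strongest c-MYC peak of the 9 genes in DMSO and a further summit inside the gene.

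In trametinib, a single peak at chr16:87869145-87869453 had its summit in coding exon 1 of SLC7A5, 257 bp downstream of the start, with 18 tags (10.7–28.4) and a fold enrichment of 4.66. It overlapped the stronger DMSO peak, with the summits 456 bp apart, so their heights do not compare signal at the same base. After scaling to the tags in each library its summit height was 0.544 of that in DMSO (0.288–0.999, and 0.212–1.31 from fragments, which takes in 1). The limit of 0.999 is close to 1 and belongs to a ratio that runs low through the longer extension in DMSO. AMG510 had no peak at SLC7A5, and its nearest summit lay 132256 bp from the start. A summit as high as the stronger DMSO one would have held 32.5 tags at the depth of AMG510, where 12 were needed at the same relative background.

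Close copies of the SLC7A5 summit windows exist in the genome, none of them identical to the original. Each of the 3 SLC7A5 summit windows had 2 near-identical copies elsewhere on chromosome 16, with a best identity of 94% to 96%, where the pseudogenes SLC7A5P1 and SLC7A5P2 lie. At both copies of the upstream window, all 3 c-MYC libraries had a peak. No library had one at the copies of the intron 1 window, and of the copies of the trametinib window in exon 1, 1 lay under a peak in all 3 libraries and 1 under a peak in DMSO and AMG510 but not in trametinib. At 1 copy of the upstream window, the AMG510 peak, at chr16:21520190-21520716, had 18 tags (10.7–28.4), against 41 (29.4–55.6) in DMSO and 16 (9.15–26) in trametinib. At the other, the AMG510 peak, at chr16:29613311-29614014, had 22 tags (13.8–33.3) and a fold enrichment of 8.29, above 98.8% of its list, against 18 tags (10.7–28.4) in DMSO and 13 (6.92–22.2) in trametinib. In AMG510, then, peaks stood at both copies of the upstream window and not at SLC7A5 itself. The part of read placement in that difference was not tested.

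SLC3A2, on the plus strand of chr11:62856004-62888880, had a promoter peak in AMG510 alone, as 4.21% of all protein-coding genes did. The peak, at chr11:62881199-62881518, had its summit in coding exon 1, 501 bp downstream of the canonical start and 302 bp upstream of another coding start. It had 15 tags (8.4–24.7) and a fold enrichment of 6.01, above 93.6% of the AMG510 list, which made it the most enriched promoter peak of the 9 genes in that library. The nearest summit to a coding start of SLC3A2 was 14413 bp away in DMSO and 50530 bp away in trametinib. Scaled to DMSO, the AMG510 summit would have held 14.8 tags, where 8 were needed, and scaled to trametinib 15.3 tags, where 8 were also needed. None of the 3 motifs lay inside the SLC3A2 peak. Of the chains of this exchanger, the light chain gene thus had a peak in DMSO and trametinib, a pattern of 2.94% of all genes, and the heavy chain gene in AMG510.

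SLC1A5 (ENSG00000105281), which encodes the glutamine transporter ASCT2, had a promoter peak in all 3 c-MYC libraries, as 5.59% of all protein-coding genes did. It is a minus-strand gene at chr19:46774883-46788594, and the peaks stood in intron 1, 1663 to 1707 bp downstream of the canonical start and 411 to 455 bp downstream of another coding start. The summit held 23 tags (14.6–34.5) in DMSO, 16 (9.15–26) in AMG510 and 12 (6.2–21) in trametinib. DMSO was highest and trametinib lowest, but the intervals overlapped. Relative to DMSO and scaled for depth, the height was 0.686 in AMG510 (0.339–1.36) and 0.505 in trametinib (0.229–1.06), and both intervals took in 1. Fold enrichments were 4.96, 4.57 and 3.98, above 63.5%, 61.7% and 21.7% of their lists.

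The SLC1A5 summits stood on nearly the same base in every c-MYC library. The AMG510 summit lay 35 bp and the trametinib summit 9 bp from that in DMSO. The DMSO summit fell within an E-box, at chr19:46786919-46786924, in the centre of the sequence printed above, and the gap to this E-box was 32 bp in AMG510 and 7 bp in trametinib. A lncRNA, ENSG00000275719, also starts 884 to 928 bp from these summits, so that the peaks cannot be assigned to SLC1A5 by position alone. Counted from the canonical start only, SLC1A5 had no promoter peak in any library.

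SLC38A2 (ENSG00000134294), which encodes SNAT2, a sodium-coupled importer of glutamine and other small neutral amino acids, had a promoter peak in DMSO and AMG510 but not in trametinib, as 4.81% of all protein-coding genes did. In DMSO the peak at chr12:46372284-46372534 held 18 tags (10.7–28.4), and its fold enrichment of 5.38 was above 75.6% of the list. In AMG510 the peak at chr12:46372257-46372518 held 14 tags (7.65–23.5), and its fold enrichment of 5.06 was above 79.3% of the list. Both summits lay in intron 1, 408 and 401 bp downstream of the start and 7 bp from each other, and the scaled ratio of AMG510 to DMSO was 0.767 (0.353–1.63). The heights thus differed by less than counting error. In trametinib the nearest summit was 612297 bp from a coding start, whereas a summit of the DMSO height would have held 18.6 tags and 10 were needed. The noncanonical E-box printed above lay 72 bp from the DMSO summit, and an ATF4 element lay further into intron 1, outside both peaks. The antisense lncRNA SLC38A2-AS1 starts 902 and 909 bp from the summits.

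**Figure D2:**
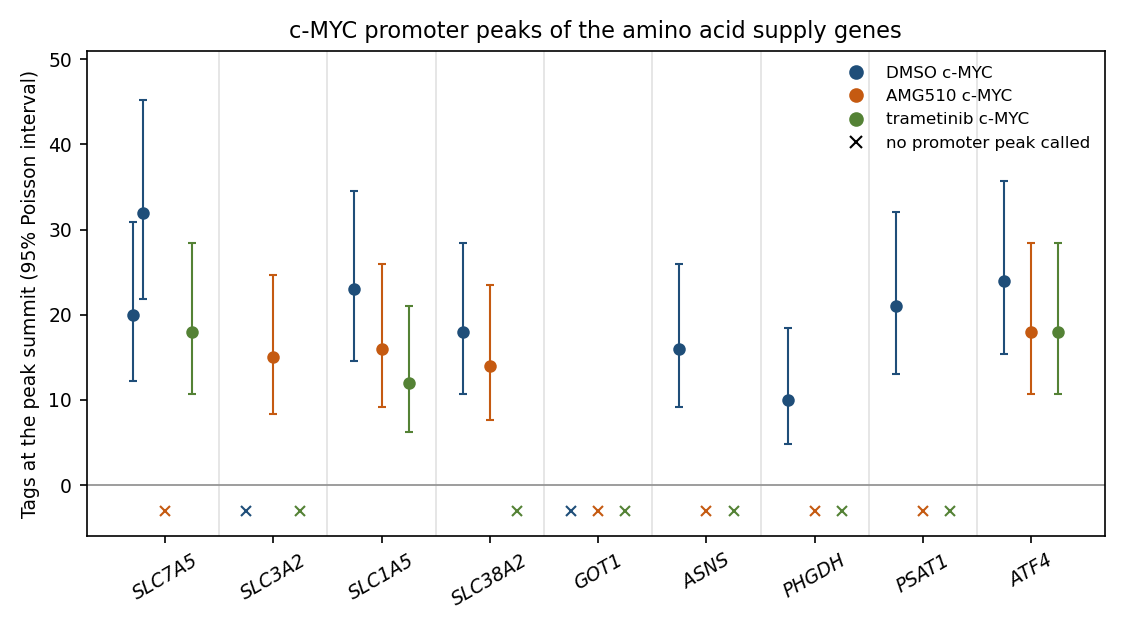
Tags at the summit of each promoter peak (y axis) for the 9 genes (x axis) in the 3 c-MYC libraries, with 95% Poisson intervals; a cross below the zero line marks a library in which no promoter peak was listed, which does not mean 0 tags. Points run from 10 to 32 tags in DMSO, 14 to 18 in AMG510 and 12 to 18 in trametinib, and only SLC1A5 and ATF4 have a point in all 3.

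Among the enzyme genes, 3 of 4 had a promoter peak in DMSO and none had one listed in a drug library. PSAT1 (ENSG00000135069), ASNS (ENSG00000070669) and PHGDH (ENSG00000092621) each had 1 promoter peak in DMSO alone, a pattern that 10.9% of all protein-coding genes shared. Among the 4761 genes with a DMSO promoter peak, 2138 had this pattern, beside 3 of the 7 members with such a peak. A promoter peak in DMSO alone was thus common among genes with a DMSO promoter peak and is not particular to these enzyme genes. GOT1 (ENSG00000120053) had none in any library, as for 68.3% of all genes. PHGDH and PSAT1 catalyse successive early steps of serine synthesis, ASNS makes asparagine with nitrogen taken from glutamine, and GOT1 interconverts aspartate and glutamate in the cytosol.

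PSAT1, on the plus strand of chr9:78297125-78330093, had the tallest summit of these enzyme genes. Its DMSO peak, at chr9:78297175-78297542, held 21 tags (13–32.1) in intron 1, 154 bp downstream of the start, with a fold enrichment of 5.90 that was above 85.0% of the list. At this height 21.3 tags would have been present in AMG510 and 21.7 in trametinib, where 10 were needed in each. A noncanonical E-box lay 41 bp and an ATF4 element 113 bp from the DMSO summit, both inside the peak. AMG510 had a peak within the gene, at chr9:78311502-78311658 in intron 6, with 11 tags (5.49–19.7) and a fold enrichment of 3.66, above only 11.7% of its list. In trametinib the nearest summit lay 275228 bp from a start of PSAT1.

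ASNS, on the minus strand of chr7:97851677-97872542, had a DMSO peak at chr7:97872026-97872331 with 16 tags (9.15–26) and a fold enrichment of 5.73, above 82.2% of the list. The summit lay in intron 1 of the canonical transcript and 6 bp from the start of another coding transcript. At the same height 16.2 tags would have been present in AMG510 and 16.5 in trametinib, where 8 and 9 were needed. An ATF4 element lay at −61 bp from the canonical start, outside the c-MYC peak, and a noncanonical E-box lay inside the peak, 142 bp from the summit. Trametinib had a peak inside ASNS, at chr7:97853791-97854073 in intron 10, with 11 tags (5.49–19.7) and a fold enrichment of 4.59. It stood 18456 bp downstream of the canonical start and so was not a promoter peak of a coding transcript. When the starts of all transcripts were used, it counted as a promoter peak and 4 of the 9 genes had one in trametinib. In AMG510 the nearest summit to a coding start was 90164 bp away.

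PHGDH had the weakest promoter peak of the 9 genes. On the plus strand of chr1:119648411-119744218, its DMSO peak at chr1:119712246-119712422 held 10 tags (4.8–18.4) in intron 1, 377 bp downstream of the canonical start, and its fold enrichment of 3.801 was above only 15.4% of the list. This height corresponds to 10.1 tags in AMG510 and 10.3 in trametinib, with 8 needed in each, so that the absence of a PHGDH peak in the drug libraries rests on a difference of about the size of counting error. No E-box, noncanonical E-box or ATF4 element lay inside the peak.

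GOT1, on the minus strand of chr10:99396870-99430624, has a single coding start in the annotation. The nearest c-MYC summit lay 101382 bp from it in DMSO, 129894 bp in AMG510 and 301712 bp in trametinib. The ATF4 element printed above lay at −191 bp from its start. Neither form of E-box was found within 1 kb of the start. GOT1 thus had no c-MYC peak in or within 10 kb of the gene in any library.

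ATF4 (ENSG00000128272), the regulator, had a promoter peak in all 3 c-MYC libraries. The gene lies on the plus strand of chr22:39519695-39522683. Its summit held 24 tags (15.4–35.7) in DMSO and 18 (10.7–28.4) in each drug library, and fold enrichments were 5.53, 4.42 in AMG510 and 5.91 in trametinib, above 79.5%, 50.2% and 89.0% of their lists. DMSO had the most tags and trametinib the highest fold enrichment. Scaled for depth, the height relative to DMSO was 0.740 in AMG510 (0.378–1.42) and 0.726 in trametinib (0.371–1.39), and both intervals took in 1. These ratios compare the highest points of peaks whose summits lay 325 and 330 bp apart. They do not compare signal at the same base. As a ratio of fold enrichments, trametinib stood at 1.07 of DMSO and AMG510 at 0.8.

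The summit within ATF4 stood at another place in DMSO than in the drug libraries. In DMSO, the peak at chr22:39520666-39521067 had its summit in intron 1, 377 bp downstream of the start, with noncanonical E-boxes 24 and 58 bp from it. In AMG510, the peak at chr22:39520509-39520871 had its summit in the 5′ UTR in exon 1, 52 bp downstream of the start. In trametinib, the peak at chr22:39520382-39521035 had its summit 47 bp downstream of the start, also in the 5′ UTR. The drug summits lay 5 bp from each other and 325 and 330 bp from the DMSO summit, and the noncanonical E-box printed above lay 8 bp from the AMG510 summit and 3 bp from the trametinib summit. The trametinib peak also took in the E-box at −85 bp from the start, 127 bp from its summit. The peaks of all 3 libraries overlapped, and that of trametinib also covered the DMSO summit and both noncanonical E-boxes beside it. With 18 to 24 tags at the summits and 1 library each, whether the summit places differ beyond counting error was not tested. The AMG510 and trametinib windows had 1 copy each, on chromosome 17, with identities of 93% and 92.7%, and no list had a peak at that copy. The DMSO window had no such copy.

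ATF4 was also the only one of the 9 genes with an IgG peak in or within 10 kb of it. That peak, at chr22:39521845-39522392 in coding exon 3, had 13 tags (6.92–22.2) and a fold enrichment of 5.21, and it lay 1303 bp from the nearest coding start. An AMG510 peak at chr22:39521965-39522492, with 14 tags and a fold enrichment of 3.53, overlapped it by 428 bp, and the depth-scaled ratio of IgG to AMG510 was 0.994 (0.43–2.28). This second AMG510 peak and the IgG signal at the same exon thus differed by less than counting error. Copies of the exon 3 summit windows, up to 97.4% identical, were found on chromosomes 11, 17 and X, and none had a peak.

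**Figure D3:**
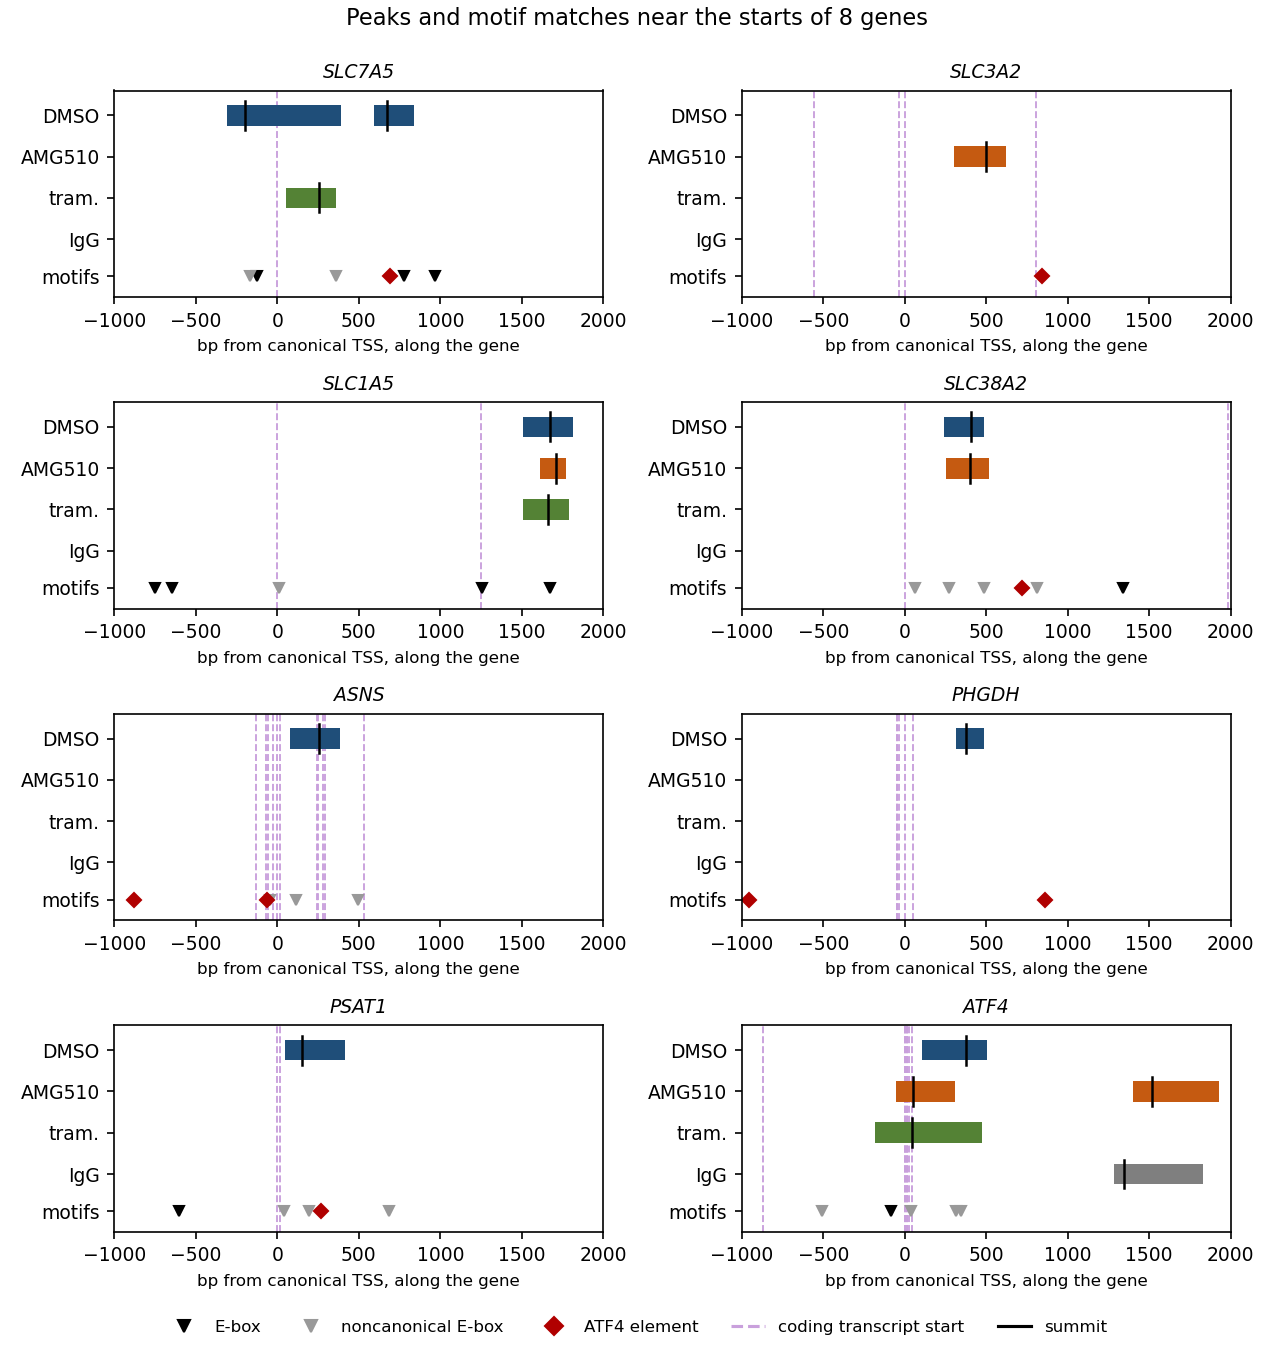
Positions of peaks (bars), summits (black ticks), coding transcript starts (dashed lines) and motif matches (triangles and diamonds) for the 8 genes with a promoter peak; x axis, bp from the canonical start along the gene; rows, the 4 libraries and the motifs. SLC1A5 and SLC38A2 summits line up between libraries, the ATF4 drug summits stand at the start and the DMSO summit 377 bp into the gene, and the IgG peak lies only in ATF4.

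When peaks in the gene or within 10 kb of it were counted, the order of the c-MYC libraries was the same. In DMSO 7 of the 9 genes had such a peak (77.8%, against 38.9% of all genes), in AMG510 5 (55.6%, against 33.8%), in trametinib 4 (44.4%, against 22.9%) and in IgG 1 (11.1%, against 7.89%). The genes added by this wider count were PSAT1 in AMG510 and ASNS in trametinib, through the intron peaks given above, and ATF4 in IgG.

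Of the 7 genes with a promoter peak in DMSO, 3 also had a promoter peak in AMG510 (42.9%), namely SLC1A5, SLC38A2 and ATF4, and 3 had one in trametinib (42.9%), namely SLC7A5, SLC1A5 and ATF4. Among all genes with a DMSO promoter peak, 43.0% also had a promoter peak in AMG510 and 35.2% in trametinib. By position, 3 of the 8 DMSO promoter peaks (37.5%) were overlapped by a peak in AMG510, and 3 in trametinib, against 33.1% and 27.7% of all DMSO promoter peaks. The shares kept by the 7 genes were thus near the background for AMG510, and with 7 genes the excess for trametinib amounts to less than 1 gene. Both drug libraries were compared with the same DMSO library.

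How enriched a peak was in DMSO did not separate the genes that kept it from those that did not. The DMSO fold enrichments of peaks kept in AMG510 ran from 4.96 to 5.53, within the range of 3.801 to 6.84 of those not kept. For trametinib, kept peaks ran from 4.96 to 6.84 and peaks not kept from 3.801 to 5.90, so that these ranges overlapped too.

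**Figure D4:**
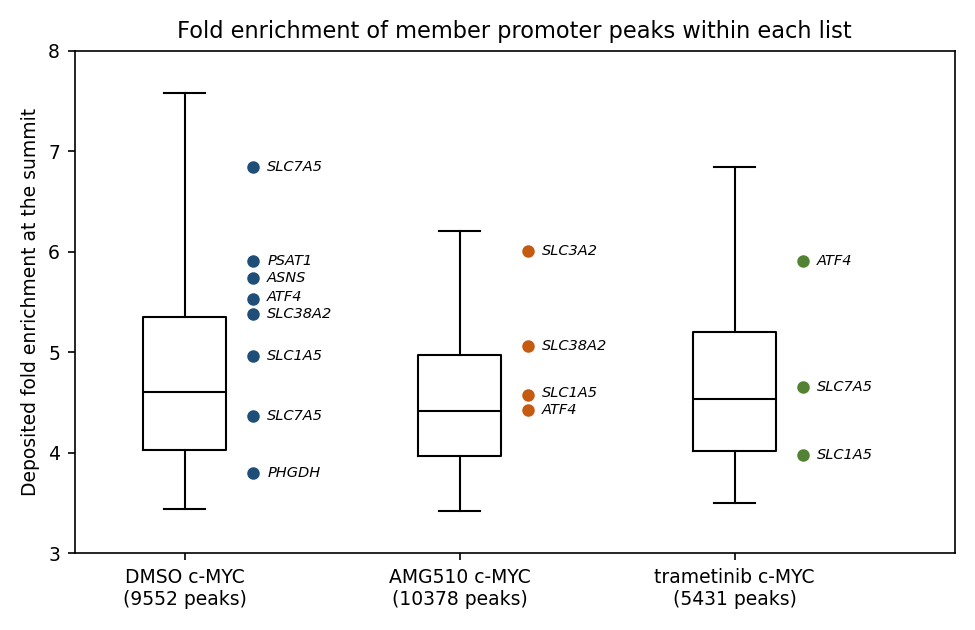
Deposited fold enrichment at the summit (y axis) of the promoter peaks of the 9 genes (labelled points) beside all peaks of the same c-MYC library (boxes, median and quartiles; whiskers, 5th to 95th percentile). The points run from 3.801 to 6.84 in DMSO, 4.42 to 6.01 in AMG510 and 3.98 to 5.91 in trametinib, and none lies above the upper whisker of its list.

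Across the 3 c-MYC libraries the 9 genes had 15 promoter peaks, of which 10 had the summit in intron 1 and 13 lay downstream of the nearest coding start. The summits lay 5 to 670 bp from that start. SLC1A5 and ATF4 enter from all 3 libraries and SLC38A2 from DMSO and AMG510, so some places count more than once. The same shares for all promoter peaks are not given, so these counts do not mark the 9 genes off from other genes. The median member promoter peak stood above 77.5% of the DMSO list, 70.5% of the AMG510 list and 55% of the trametinib list. These lists also hold peaks away from promoters, which tend to be less enriched. Among promoter peaks alone, members stood above 11.3% to 87.4% in DMSO and 40.0% to 86.9% in AMG510. In trametinib they stood above 17.8% to 83.6%, and the middle one above 47.7%, so it was close to a typical promoter peak. The GC content within 100 bp of the summits had a median of 68.7% in DMSO, against 72.1% for all DMSO promoter peaks; it was 66.7% against 71.6% in AMG510 and 63.2% against 71.6% in trametinib. The member medians were thus somewhat lower, in counts of 8, 4 and 3 peaks. Single member summits ran from 59.2% to 78.1% in DMSO and 59.7% to 79.1% in AMG510, on both sides of the medians for all promoter peaks. In trametinib they ran from 57.7% to 71.1%. Since SLC1A5 and ATF4 recur in all 3 libraries, the libraries are not independent on this point.

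An E-box lay within 100 bp of the summit in 2 of the 8 DMSO promoter peaks of the members (25.0%), those of SLC7A5 upstream of the start and of SLC1A5, against 16.9% of all DMSO promoter peaks. In AMG510 it did so in 1 of 4 and in trametinib in 1 of 3, each time at SLC1A5, against 14.4% and 17.3%. The noncanonical form was found in 4 of 8, 2 of 4 and 1 of 3, against 23.3%, 21.1% and 22.2% of promoter peaks. An ATF4 element lay within 100 bp of 1 of the 8 DMSO summits, that of SLC7A5 in intron 1, 11 bp away, against 0.715% of all DMSO promoter peaks, and at none of the AMG510 or trametinib member summits, against 0.499% and 0.8%. Searches covered both strands, and the motifs differ in letters so that none counts as another. With so few peaks these shares are counts of named sites.

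The annotated promoters were searched for the same motifs without reference to peaks, and the sites found are in part not those at the summits. The E-box in the SLC1A5 promoter, at chr19:46787338-46787343, lay outside every peak. All 9 genes matched RefSeq promoters (GRCh38.p14, from 250 bases before to 50 after the start), with 15 entries in all. Of these, 4 held an E-box (26.7%), against 7.26% of the 35116 promoters in the table, 8 held a noncanonical E-box (53.3%, against 11.4%) and 4 held an ATF4 element (26.7%, against 3.62%). The ATF4 elements stood in promoters of ASNS, GOT1, SLC3A2 and SLC1A5, and none of them lay inside a c-MYC peak. Entries of the same gene overlap in part, so that they are not independent.

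SLC1A5 and ATF4, the genes with a promoter peak in every c-MYC library, were compared with the other genes of this kind, 1100 in all with them, by the distance between their fold enrichments on the log2 scale. The most similar to SLC1A5 were SPIN1, at a distance of 0.052, and PLEKHJ1, at 0.084. Those nearest to ATF4 were IZUMO4 and MOB3A, both at 0.081. The latter pair, which overlap at their starts on chromosome 19, share the same peaks and had identical values, 5.81 in DMSO, 4.53 in AMG510 and 5.85 in trametinib.

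Other genes of amino acid transport, metabolism and the ATF4 response, a list of 46, also had fewer promoter peaks in the drug libraries than in DMSO. In DMSO 23 of the 46 had one, against 24.2% of all genes. In AMG510 10 had one (21.7%, against 15.3%), in trametinib 13 (28.3%, against 11.8%) and in IgG none (against 0.559%). The count in trametinib was above that in AMG510 at this setting. Among stronger peaks there were 4 in each library at a fold enrichment above 5, and 3 in AMG510 and 2 in trametinib at a score above 60. The shares of all genes at those thresholds are not given, so the order of the drug libraries cannot be read from these counts. Of the 23 genes with a DMSO peak, 8 also had a promoter peak in AMG510 (34.8%, against 43.0% of all genes with a DMSO promoter peak) and 10 in trametinib (43.5%, against 35.2%), shares that lie near those of all genes. CHAC1 and PSPH had one in AMG510 alone, a pattern of 4.21% of all genes. ATF5, GPT2 and SLC36A1 had one in trametinib alone, a pattern of 2.59% of all genes. The other 18 of the 46 genes had none in any c-MYC library, against 68.3% of all genes. Among these 18 were the cystine importer gene SLC7A11, the glutamine synthetase gene GLUL and the stress response genes DDIT3 and SESN2.

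Of the 46 genes, 6 had a promoter peak in all 3 c-MYC libraries, against 5.59% of all protein-coding genes. They were the amino acid transporter genes SLC7A1 and SLC7A6, the mitochondrial glutamate enzyme genes GLUD1 and GOT2, and CEBPG and NFE2L2. CEBPG is a C/EBP family gene, and NFE2L2 encodes the oxidative stress regulator NRF2. SLC7A1, which encodes an arginine and lysine importer, held 35 tags in DMSO, 24 in AMG510 and 16 in trametinib, with depth-scaled ratios to DMSO of 0.676 (0.385–1.17) and 0.442 (0.229–0.821). SLC7A6 held 23 tags in DMSO, 9 in AMG510 and 27 in trametinib, with ratios of 0.386 (0.157–0.866) and 1.14 (0.627–2.07). CEBPG, whose product pairs with ATF4, held 24, 13 and 16 tags, with ratios of 0.534 (0.25–1.09) and 0.645 (0.32–1.27). The intervals of SLC7A1 in trametinib and SLC7A6 in AMG510 lay below 1 when tags were taken as independent, but from fragments they were 0.166–1.08 and 0.0985–1.23 and took in 1.

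GOT2, the mitochondrial counterpart of GOT1, held 18 tags in DMSO, 17 in AMG510 and 13 in trametinib, with ratios of 0.931 (0.451–1.92) and 0.699 (0.315–1.51). GLUD1, which encodes glutamate dehydrogenase, held 25, 18 and 14 tags, and the AMG510 peak that overlapped that of DMSO stood at 0.710 (0.365–1.35). The peaks of NFE2L2, with 24, 10 and 21 tags, lay at different starts of the gene in the 3 libraries, and no ratio was formed. The mitochondrial aminotransferase gene thus had c-MYC peaks in all 3 treatments, while the cytosolic GOT1 had none.

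The most enriched promoter peaks of the 46 genes in DMSO were those of EIF2AK3, which encodes the stress kinase PERK upstream of ATF4, with a fold enrichment of 10.15 and 30 tags, of NFE2L2 with 8.05 and of SLC7A1 with 7.63. EIF2AK3 had no promoter peak in either drug library. In AMG510 they were those of SLC7A1 with 6.96, of SHMT2, a mitochondrial serine and glycine enzyme gene, with 6.30, and of GLUD1 with 5.86. In trametinib they were those of SLC7A6 with 6.95, of NFE2L2 with 6.57 and of SLC1A4, a neutral amino acid transporter gene, with 5.57. The leading gene of the list was thus different in each library.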

How the data were processed

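c-MYC and IgG ChIP–seq libraries of MIA PaCa-2 cells were grouped by their sample titles, 1 library per group. The submitters' processing notes name Trimmomatic 0.39, BWA 0.7.17, SAMtools 1.9, Picard, bedtools 2.27.1 and MACS2 2.2.7.1. The authors aligned reads to GRCh38, kept alignments with a mapping quality of at least 20, removed duplicates, called peaks for each library and removed those on the ENCODE exclusion list. Reads that fit near-identical copies equally well are lost by such a filter. No source used here says that IgG served as the control in calling.

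The deposited score of each peak is its −log10 q-value times 10. The deposited fold enrichment is a ratio of summit signal to local background, and 2 further deposited columns give the −log10 of the p-value and of the q-value at the summit. Whole-number tags and the tags in calling were recovered from these values, for 100% of peaks in each list, and were tested on simulated data.

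Promoter peaks had summits within 1 kb of the start of a protein-coding transcript (GENCODE 44). Intervals are 95% exact Poisson intervals for tags and exact conditional binomial intervals for ratios scaled by the tags in calling; intervals from fragments, added after the data were seen, count 2 tags as 1 because the authors converted aligned pairs to single reads before calling; no p-values were computed. The tags needed in another library were the fewest that reached its lowest listed −log10 p-value at the same background relative to depth. Copies were sought by aligning 151-bp summit windows with minimap2 2.31-r1302 (at least 100 bp at 90% identity). Python 3.11.15, numpy 2.4.6, scipy 1.17.1 and matplotlib 3.10.9 were used. All 9 genes were described whatever their values; of the 46 pathway genes, those with promoter peaks in all 3 c-MYC libraries and the 3 most enriched per library were named, as were the 2 genes most like each gene with peaks in all 3 and genes starting within 1 kb of a summit. Other pathway genes were named after their values were seen. The members, lists and settings were chosen with earlier results of these data known. Alternatives changed the distance, the set of starts, the flank, the peak threshold, the overlap, the scaling and the motif search. What AMG510 binds is not reported here.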

Additional observations from a re-analysis of the deposited data

Results flagged for a closer look

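SLC7A6, a gene of the pathway list that encodes a cationic and neutral amino acid exchanger chain, was looked at again because its ratios to DMSO lay on opposite sides of 1 in the drug libraries: the depth-scaled summit height relative to DMSO was 0.386 (0.157–0.866) in AMG510 and 1.14 (0.627–2.07) in trametinib, with 1 library each. The trametinib interval takes in 1, so no rise there is shown, and counted from fragments the AMG510 interval (0.0985–1.23) takes in 1 too. The difference between the drugs was not tested.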

How the results depend on the processing

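No paired analysis was possible because there was only 1 library per group. Of 98 values recomputed under another setting, 74 stayed within the limits set for a match and 24 moved. Most are counts, which have no direction to turn. The ratio of trametinib to DMSO at ATF4, 0.726 with an interval that takes in 1, turned to 1.07 as a ratio of fold enrichments. Intervals from fragments, chosen after seeing the data, took in 1 for every ratio of the 9 genes, SLC7A5 in trametinib included (0.212–1.31). Peak strength moved the counts most. The share of all genes is given at the main setting only. The counts that follow therefore do not show whether the 9 genes or the pathway list stay above all genes under another setting. With fold enrichment above 5, the genes of the 9 with a promoter peak numbered 2 in AMG510 (SLC3A2 and SLC38A2) and 1 in trametinib (ATF4), the same numbers had a peak in the gene or within 10 kb, and the pathway list gave 15 in DMSO, 4 in AMG510 and 4 in trametinib. With a score above 60, the promoter and wider counts of the 9 genes were both 0 in AMG510 and both 1 in trametinib, the wider count in IgG was 0, and the pathway list gave 12, 3 and 2. With starts within 500 bp the pathway list gave 6 in AMG510. With starts within 2 kb ATF4 counted as 1 promoter gene in IgG, and a flank of 20 kb gave 2 genes in IgG, ATF4 and PHGDH. With summits within 200 bp counted as shared, 1 DMSO promoter peak was matched in trametinib. With either form of E-box, 5 DMSO, 3 AMG510 and 2 trametinib member peaks held one within 100 bp, and with a window of 250 bp 2 AMG510 and 2 trametinib peaks held the canonical form. Scores rest on q-values of a whole list, so a score of 60 is not the same strength in every library. Summits of 10 to 32 tags give wide intervals, and a gene without a peak is below the threshold, which is not the same as unbound.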
